A study of Mus musculus with 8 samples.

Results

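The Hox genes encode homeodomain transcription factors that set position along the body axis. The 36 of them described here are those whose probe set carried a single symbol made of Hoxa, Hoxb, Hoxc or Hoxd and a number, among 18820 genes measured in mouse epididymal fat. They comprised 10 Hoxa, 9 Hoxb, 9 Hoxc and 8 Hoxd genes, each with 1 probe set of a single symbol. Hoxb8 is not among them, since its probe set also carried the symbol Hoxb7. Further probe sets of Hoxa3 and Hoxd3 were left out because they also carried another symbol.

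The mammalian Hox genes lie in 4 clusters. Genes with the same number in different clusters are paralogs, and their order in a cluster follows the order of their expression along the embryo, low numbers towards the head and high numbers towards the tail. Adult tissues keep much of this code, and fat depots are known to differ in it. Hoxc8 and Hoxc9 are known as genes of white rather than brown fat, and Hoxc10 as a gene of subcutaneous fat.

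All 8 arrays were hybridised with RNA of the epididymal white fat pad, a visceral depot, of male C57BL/6 mice. 4 arrays came from wild-type (WT) mice and 4 from mice with a transgene for human interleukin-37 (IL37TG), a cytokine that restrains inflammation. Fat supplied 10% of the energy during 2 run-in weeks and 45% during the 16 weeks of high-fat feeding that followed, in both groups. The wild-type mice were purchased, whereas the transgenic mice came from a line described earlier on the same background. The labels do not call them littermates and give neither the ages of the mice nor the promoter of the transgene, so the genotype and the colony of origin cannot be told apart. Whether every array stands for its own mouse is not stated either, and the p-values then cover the spread among these 8 arrays alone, which may be technical. The level of the transgene itself was not analysed here.

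A gene was called above background when its mean exceeded 4.62 log2 units, the 95th percentile of 990 olfactory receptor genes, a family taken here as little or not expressed in fat. All 14 adipocyte markers did, with list means of 11.5 to 11.84 on the 8 arrays. Of 20 measured epididymis markers 1 exceeded it (Aqp9), and the mean of that list lay between 3.81 and 4.0 on every array, although single members were higher on some. Pearson correlations over all genes, which are not independent replicates, were 0.980 to 0.996 within groups and 0.971 to 0.991 between groups. 3 arrays stood apart. Transgenic replicate 4 carried RNA of the testis: the 11 measured genes of germ and Leydig cells had a mean of 7.05 there and of 4.48 to 4.99 on the other arrays. Acrv1, a gene of the sperm acrosome, read 7.44 there and 3.11 to 3.40 elsewhere. Cyp17a1, a Leydig cell gene, read 6.47 there and 4.4 to 5.05 elsewhere. Not every member was set apart: Sycp3, a germ cell gene, read 9.44 there and 8.04 to 9.98 elsewhere. Wild-type replicate 3 had the lowest macrophage marker mean of its group, 9.22 against 9.82 to 10.15, inside the transgenic range of 8.9 to 9.37 (15 of 15 markers measured). Its lymphocyte marker mean was the highest, 7.02 against 6.18 to 6.36 on the other wild-type arrays (10 of 12 markers measured). In the transgenic arrays that mean was 6.75 in replicate 3 and 6.39 to 6.48 in the others. Wild-type replicates 3 and 4 shared high levels of epithelial genes, picked out after their values were seen. Krt8, a keratin of simple epithelia, read 9.97 and 9.56 there and 6.83 to 7.82 on the other 6 arrays, and Cdh1, the epithelial cadherin, read 6.98 and 6.19 against 4.31 to 4.85. Crabp1, a retinoic acid binding protein, read 7.69 and 7.11 against 4.68 to 4.95. The epididymis gene Adam7 read 4.77 and 5.17 against 3.41 to 4.13, and Defb20 read 5.06 and 4.70 against 4.13 to 4.54. These had the lowest unadjusted p of the 20 epididymis markers, and their means of 3.99 and 4.51 were below background. The list as a whole was not set apart, with means of 3.99 and 4.0 there and 3.81 to 4.0 on the other arrays. Results that rest on these arrays are given with and without them.

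Hox genes were above background in this depot more often in the head-side and middle paralog groups than in the tail-side ones. Of the 36 genes 28 lay above 4.62 log2 units. They included 14 of 14 in groups 4 to 8 (Hoxb8 not counted), 6 of 7 in groups 1 to 3 and 8 of 15 in groups 9 to 13. Most genes of the array did so too, 13775 of 18820, and a difference between these shares was not tested. Probe sets differ in how well they bind their target, so the levels below serve to place each gene above or below background and not to rank genes.

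**Figure D1:**
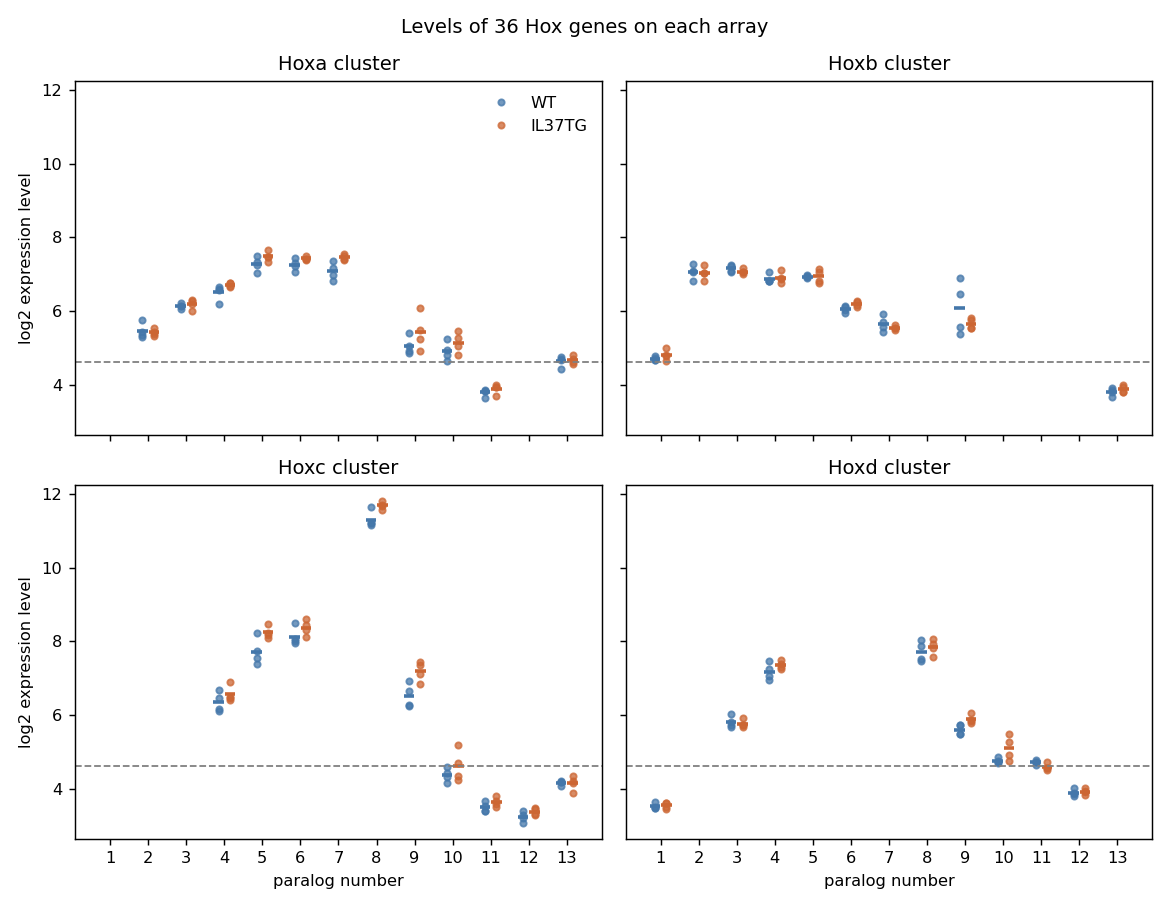
Log2 expression level (vertical axis) of each of 36 Hox genes by paralog number (horizontal axis), in 4 panels for the 4 clusters. Points are arrays, short bars are means of 4 WT (blue) or 4 IL37TG (orange) arrays, and the dashed line is the olfactory receptor level of 4.62. Hoxc8 lies at 11.15 to 11.81 on every array, and of the 8 genes numbered 11 to 13 all but Hoxa13 and Hoxd11 have means below the dashed line.

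Hoxc4 to Hoxc9 were above background and the rest of the Hoxc cluster was not. Hoxc8, which specifies thoracic and lumbar identity and is known to hold back brown fat genes, had a mean of 11.5 over the 8 arrays. The means were 8.25 for Hoxc6, 7.99 for Hoxc5, 6.86 for Hoxc9 and 6.46 for Hoxc4. Beyond Hoxc9 the levels were 4.5 for Hoxc10, 3.57 for Hoxc11, 3.31 for Hoxc12 and 4.16 for Hoxc13, a gene of hair and nails. None of these last 4 was above background. Hoxc10 was the closest to the line among the genes under it, and Hoxa13 and Hoxd11, both at 4.66, were the closest above it.

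In the Hoxa cluster the means of Hoxa5, Hoxa6 and Hoxa7 were 7.39, 7.35 and 7.27. Hoxa4 (6.61), Hoxa3 (6.17) and Hoxa2 (5.44) were also above background, as were Hoxa13 (4.66) and, of the genes that pattern the lumbar region and the reproductive tract, Hoxa9 (5.24) and Hoxa10 (5.03). Hoxa11, a gene of limb and uterus, was not above background at 3.84.

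In the Hoxb cluster Hoxb3, Hoxb2, Hoxb5 and Hoxb4 lay at 7.11, 7.05, 6.94 and 6.9, and Hoxb6, Hoxb9 and Hoxb7 at 6.13, 5.87 and 5.6. Hoxb1, a gene of the hindbrain, lay at 4.76. Hoxb13, known for its role in the prostate, was not above background at 3.85. The probe set shared by Hoxb8 and Hoxb7 was not fitted. It read 4.76, 5.02, 5.65 and 5.24 in wild-type replicates 1 to 4. In transgenic replicates 1 to 4 it read 4.98, 4.86, 4.9 and 4.93. In the Hoxd cluster Hoxd8 (7.78), Hoxd4 (7.27), Hoxd3 (5.79), Hoxd9 (5.75), Hoxd10 (4.93) and Hoxd11 (4.66) were above background. Hoxd1 (3.54) and Hoxd12 (3.91) were not above background.

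The comparison asked whether this code differed between the fat of obese IL-37 transgenic and obese wild-type mice. No Hox gene passed the test over all genes, where 3.34% of the 18820 genes did, 2.07% higher and 1.27% lower in the transgenic arrays (limma, Benjamini-Hochberg adjusted p at most 0.05). The differences were small: they ran from -0.43 for Hoxb9 to 0.66 for Hoxc9, and 28 of 36 were above 0, or 77.8%, where 55.3% of all genes were. The median difference (IL37TG minus WT) was 0.13 log2 units, beside 0.02 over all genes. At an unadjusted p of 0.05, 5 Hox genes were counted (Hoxc9, Hoxc8, Hoxa7, Hoxd9 and Hoxc5), or 13.9%, beside 20.6% of all genes. With 36 genes these shares rest on few members, and whether they differ from those of all genes was not tested. A p that misses the threshold does not show that the levels were alike: the 95% intervals of single genes reached up to 1.09 (Hoxc9) and down to -1.15 (Hoxb9).

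**Figure D2:**
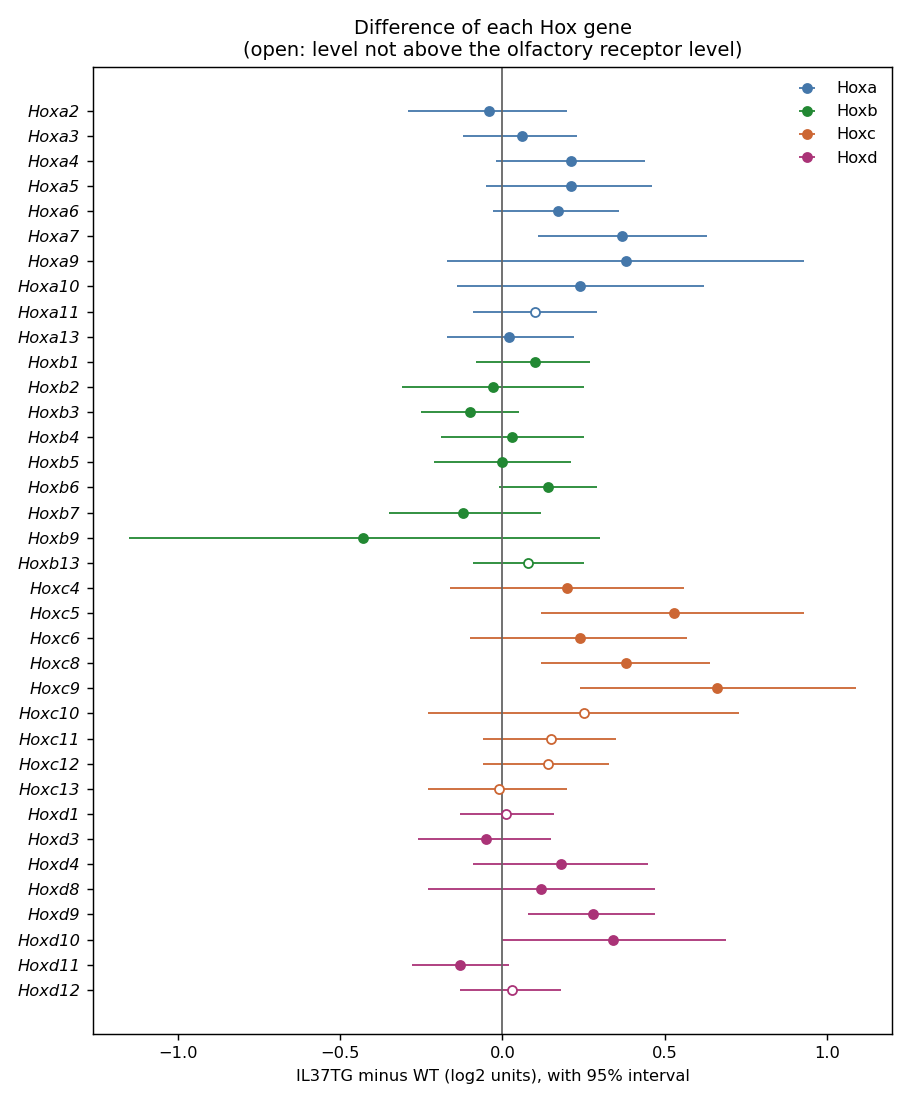
Difference of each Hox gene between IL37TG and WT arrays in log2 units (horizontal axis), with the 95% interval from the limma fit, in cluster order (vertical axis). Open circles are the 8 genes whose level was not above that of olfactory receptors. Hoxc4 to Hoxc9 lie to the right of 0, from 0.2 to 0.66, while the Hoxb genes lie between -0.43 and 0.14.

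The differences are given here by cluster and by paralog group. The 5 Hoxc genes above background differed by 0.2 to 0.66 with a median of 0.38, the 9 such Hoxa genes by -0.04 to 0.38 with a median of 0.21, and the 6 such Hoxd genes by -0.13 to 0.34 with a median of 0.15. The 8 Hoxb genes above background had a median of -0.01. Paralogs 4 to 8, which do not include Hoxb8 here, had a median of 0.19 with 13 of 14 above 0. Paralogs 1 to 3 had a median of -0.03 with 3 of 7 above 0. Paralogs 9 to 13 had a median of 0.14 with 12 of 15 above 0. The 8 genes of paralogs 9 to 13 above background had a median of 0.26, which was 0.15 without transgenic replicate 4 and -0.03 with the letter of the array name as a block. That block compares the genotypes within letter G alone, wild-type replicates 3 and 4 against transgenic replicate 1. Differences between clusters or between paralog groups were not tested.

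Hoxc9 differed most among the Hox genes. It read 6.28, 6.26, 6.94 and 6.65 in wild-type replicates 1 to 4 and 6.85, 7.36, 7.13 and 7.44 in transgenic replicates 1 to 4. Only wild-type replicate 3 lay above the lowest transgenic array. The means were 6.53 ± 0.32 and 7.2 ± 0.27 (SD, n = 4 per group), a 1.58-fold difference that did not pass (log2 0.66, SE 0.18, limma adjusted p = 0.0921). Without wild-type replicate 3 it was 0.80 and passed (limma adjusted p = 0.0345). Since this was the highest wild-type array, leaving it out could only widen the difference, and the share of all genes that passed also went up, to 6.31%.

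Hoxc8 read 11.22, 11.21, 11.64 and 11.15 in the wild type and 11.81, 11.57, 11.68 and 11.71 in the transgenic arrays. Again wild-type replicate 3 alone reached the transgenic values, and the other 3 wild-type arrays lay within 0.1 log2 units of each other. The means, 11.31 ± 0.23 and 11.69 ± 0.1 (SD, n = 4), differed by 0.38 (SE 0.11, limma adjusted p = 0.108). Without wild-type replicate 3 the difference was 0.50 and passed (limma adjusted p = 0.0138), again with the highest wild-type array left out.

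Hoxc5, a gene of the neck and upper trunk, had 7.73, 7.56, 8.22 and 7.38 in the wild type and 8.48, 8.18, 8.09 and 8.24 in the transgenic arrays. Its means were 7.72 ± 0.36 and 8.25 ± 0.17 (SD, n = 4), with a difference of 0.53 (SE 0.17, limma adjusted p = 0.141). Hoxc6, which lies beside it and takes part in patterning the thorax, had 8.08, 8.0, 8.5 and 7.96 against 8.62, 8.3, 8.13 and 8.44. Its difference was 0.24 (SE 0.14, limma adjusted p = 0.399), and the groups overlapped over most of their range. In both genes wild-type replicate 3 was the highest of its group and transgenic replicate 1 the highest of all arrays. Hoxc4, known for a role in antibody class switching, differed by 0.2 (limma adjusted p = 0.503).

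**Figure D3:**
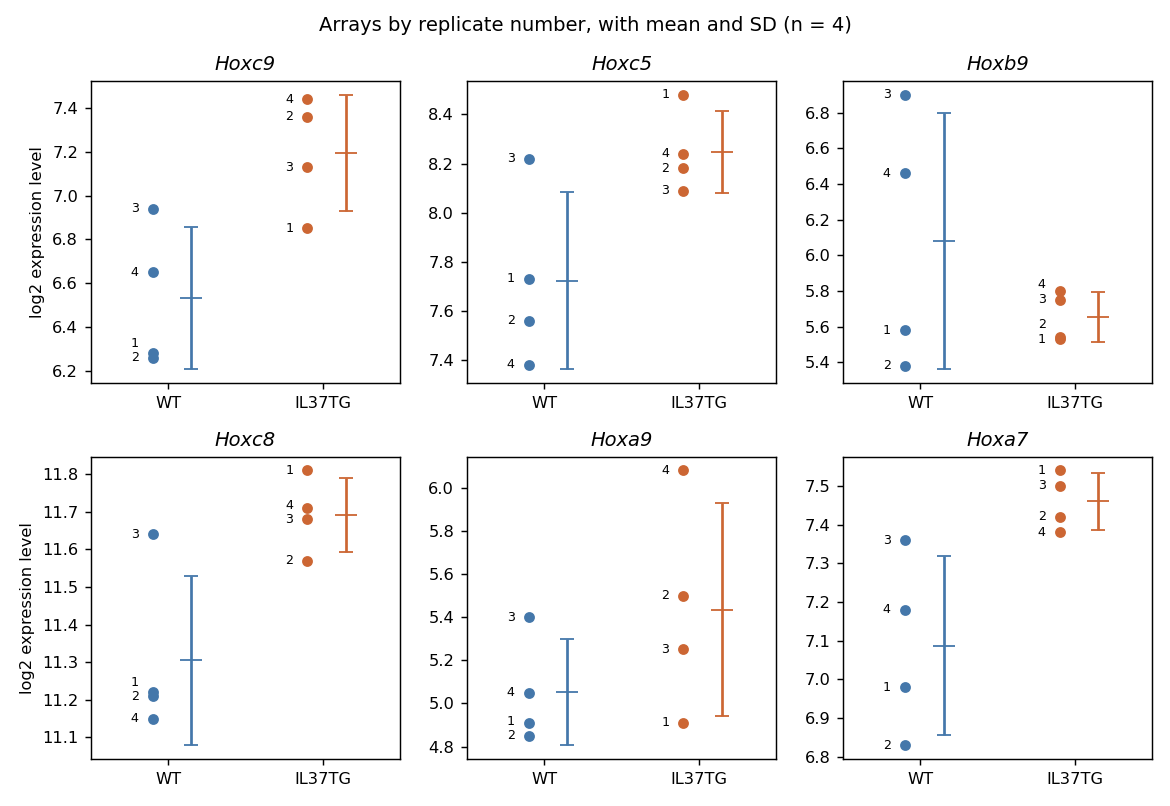
Log2 expression level (vertical axis) of the 6 Hox genes with the largest differences among those above background, for WT and IL37TG arrays. Points are arrays labelled by replicate number, and bars give the mean and SD of 4 arrays. Wild-type replicate 3 is the highest wild-type array in each of the 6 panels, and in Hoxa7 it is still below the lowest transgenic array (7.36 against 7.38).

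Of the 36 Hox genes 2 had groups that did not overlap, Hoxa7 and Hoxd9, or 5.56%, beside 14.0% of all genes (8.24% higher and 5.73% lower in the transgenic arrays). Hoxa7, a gene of the thoracic skeleton that is also active in blood progenitors, read 6.98, 6.83, 7.36 and 7.18 in the wild type and 7.54, 7.42, 7.5 and 7.38 in the transgenic arrays. The gap between the groups was narrow. Its means of 7.09 ± 0.23 and 7.46 ± 0.07 (SD, n = 4) differed by 0.37 (SE 0.11, limma adjusted p = 0.115). Hoxd9, a gene of the lumbar axis and hind limb, read 5.48, 5.5, 5.72 and 5.72 against 5.78, 5.85, 5.86 and 6.05. Its means of 5.61 ± 0.13 and 5.88 ± 0.11 (SD, n = 4) differed by 0.28 (SE 0.09, limma adjusted p = 0.126).

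The start regions of these 2 genes are shown because their arrays separated. They are the RefSeq windows of GRCm38.p6, 250 bases before to 50 bases after the gene start and 5′ to 3′ on the gene's strand, with CG pairs in capitals. The first lies at chr6:52218524-52218823 on the minus strand and the second at chr2:74697513-74697812 on the plus strand.
Hoxa7: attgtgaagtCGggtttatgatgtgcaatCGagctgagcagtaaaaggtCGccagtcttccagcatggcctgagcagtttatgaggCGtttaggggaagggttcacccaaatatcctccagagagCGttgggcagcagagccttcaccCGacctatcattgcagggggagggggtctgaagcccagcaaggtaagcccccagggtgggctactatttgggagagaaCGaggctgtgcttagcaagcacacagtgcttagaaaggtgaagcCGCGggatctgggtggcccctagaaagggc
Hoxd9: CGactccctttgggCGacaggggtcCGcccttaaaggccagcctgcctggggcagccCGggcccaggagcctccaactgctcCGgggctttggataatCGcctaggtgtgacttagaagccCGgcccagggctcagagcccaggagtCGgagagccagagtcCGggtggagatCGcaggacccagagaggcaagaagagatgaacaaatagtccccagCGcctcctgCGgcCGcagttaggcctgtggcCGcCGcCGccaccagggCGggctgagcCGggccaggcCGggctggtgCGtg

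The Hoxa7 window held 9 CG pairs and the Hoxd9 window 20. CG-rich starts are where Polycomb proteins, the repressors of silent Hox genes, are known to sit. The table of windows matched 20 of the 36 Hox genes with 22 windows, whose median was 14.5 CG pairs (range 4 to 45), beside 7 over all 32851 windows of the same 300 bases. Of all windows 65.4% lay below that Hox median. The motif TGATNNAT, a joint site of Hox proteins and their Pbx partners, was searched on both strands. It was found in 3 of the 22 Hox windows (13.6%) and in 8.85% of all windows, and not in the windows of Hoxa7 and Hoxd9. With so few windows these shares are not read as a difference.

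The remaining bright Hoxa genes had small differences. Hoxa5, which patterns the lung and the cervical and upper thoracic spine, read 7.03, 7.34, 7.5 and 7.26 in the wild type and 7.67, 7.46, 7.34 and 7.48 in the transgenic arrays (difference 0.21, SE 0.11, limma adjusted p = 0.335). Hoxa6 read 7.05, 7.23, 7.45 and 7.32 against 7.5, 7.41, 7.42 and 7.39 (difference 0.17, SE 0.09, limma adjusted p = 0.32). In both genes the groups overlapped and wild-type replicate 1 was the lowest array.

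Hoxa9 was highest in transgenic replicate 4. Its levels were 4.91, 4.85, 5.4 and 5.05 in the wild type and 4.91, 5.5, 5.25 and 6.08 in the transgenic arrays. The difference of 0.38 (SE 0.24, limma adjusted p = 0.411) fell to 0.17 without transgenic replicate 4, the array with testis RNA. Hoxa10 likewise went from 0.24 to 0.14 and Hoxc10, not above background over all arrays, from 0.25 to 0.05 without it. The part of testis RNA in these values was not tested. For Hoxc9, Hoxc8, Hoxc5 and Hoxa7 the differences without that array were 0.58, 0.38, 0.53 and 0.40, and none passed (1.23% of all genes did).

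Hoxb9, a thoracic gene, was the Hox gene with the most negative difference and the widest spread. It read 5.58, 5.38, 6.9 and 6.46 in wild-type replicates 1 to 4 but only 5.53, 5.54, 5.75 and 5.8 in the transgenic arrays. Thus wild-type replicates 3 and 4 lay far above every other array, while replicates 1 and 2 did not. The means were 6.08 ± 0.72 and 5.65 ± 0.14 (SD, n = 4), with a difference of -0.43 (SE 0.32, limma adjusted p = 0.485). Without wild-type replicate 3 it was -0.15, and without replicates 3 and 4 it turned to 0.17 (limma adjusted p = 0.491, 2 wild-type arrays left). These are the 2 arrays with high Krt8, Cdh1 and Crabp1. Emx2, a gene of the urogenital tract, was also highest in them, with 5.84 and 5.29 against 4.13 to 4.64. Over the 12 of 13 mesothelial markers measured their means were 8.2 and 8.19, beside 7.48 and 6.99 in replicates 1 and 2 and 7.49 to 7.95 in the transgenic arrays. Among these markers Krt8, Krt18 and Cdh1 were far higher in them, whereas Msln and Upk3b, which are defining genes of mesothelium, were not: Msln read 8.16 and 8.26 there and 7.18 to 8.55 elsewhere, and Upk3b 9.84 and 10.04 against 9.18 to 10.38. The part of epithelial RNA in the Hoxb9 values was not tested, and in bulk tissue fewer cells of a type and less RNA per cell cannot be told apart.

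Differences of the bright Hoxb genes lay close to 0. Hoxb2, which acts in the hindbrain, read 6.82, 7.08, 7.29 and 7.05 in the wild type and 7.26, 7.03, 7.03 and 6.81 in the transgenic arrays (difference -0.03, 95% interval -0.31 to 0.25). Hoxb3 read 7.07, 7.09, 7.23 and 7.26 against 7.05, 7.0, 7.16 and 7.05 (difference -0.1, interval -0.25 to 0.05). Hoxb5 read 6.95, 6.98, 6.92 and 6.9 against 7.13, 6.81, 7.06 and 6.76 (difference 0.0, interval -0.21 to 0.21). In all 3 genes the groups overlapped.

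In the Hoxd cluster Hoxd8 read 7.52, 7.46, 8.04 and 7.87 in the wild type and 7.81, 8.06, 7.59 and 7.92 in the transgenic arrays (difference 0.12, SE 0.15, limma adjusted p = 0.694). Hoxd4, which acts at the head and neck boundary, read 6.95, 7.06, 7.48 and 7.24 against 7.49, 7.32, 7.25 and 7.39 (difference 0.18, SE 0.12, limma adjusted p = 0.42). Hoxd3 read 5.72, 5.69, 6.03 and 5.82 against 5.92, 5.73, 5.73 and 5.69 (difference -0.05, SE 0.09, limma adjusted p = 0.783). The groups overlapped in all 3. Hoxd10, a gene of the hind limb, differed by 0.34 (SE 0.15, limma adjusted p = 0.244), with transgenic replicates 2 and 4 at 5.48 and 5.26 and the other 6 arrays between 4.69 and 4.91. The 20 Hox genes not described array by array differed by -0.13 to 0.34.

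Arrays of a group differed in their Hox levels as a whole. Wild-type replicate 3 was the highest wild-type array in 23 of 36 Hox genes, where it was the highest in 28.5% of all genes, and wild-type replicate 1 was the lowest in 14, beside 20.4% of all genes. Transgenic replicate 1 was the highest transgenic array in 18 of 36, beside 25.4% of all genes. For paralogs 4 to 8 the median deviation from each gene's mean was -0.26, -0.23, 0.13 and -0.04 in wild-type replicates 1 to 4 and 0.22, 0.06, -0.02 and 0.10 in transgenic replicates 1 to 4. The 8 tail-side genes above background were highest in transgenic replicates 4 (0.31) and 2 (0.17) and lowest in wild-type replicates 1 (-0.27) and 2 (-0.24). The wild-type arrays with the lowest Hox values, replicates 1 and 2, had the highest macrophage means, 10.07 and 10.15, and replicate 3 the lowest of its group, 9.22. Of the 15 macrophage genes 3 fell in the transgenic arrays, where 1.27% of all genes fell. They were Trem2 by 2.02, Fcgr1 by 1.09 and Cx3cr1 by 0.63 log2 units (limma adjusted p = 0.0454, 0.0469 and 0.0231). Cd163 rose by 0.77 (limma adjusted p = 0.0212), where 2.07% of all genes rose. None of these 4 passed with the number of the array name as a block (limma adjusted p of 0.0541 to 0.121). With 1 array left out, Trem2 and Fcgr1 each passed in 1 of 8 fits, Cx3cr1 in 2 and Cd163 in 4. With the letter as a block Trem2, Fcgr1, Cx3cr1 and Cd163 differed by -1.18, -0.7, -0.64 and 0.64 and did not pass. That fit compares the genotypes within letter G alone, with 1 transgenic array, and cannot decide whether a call holds. The part of macrophage content in the Hox values was not tested.

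**Figure D4:**
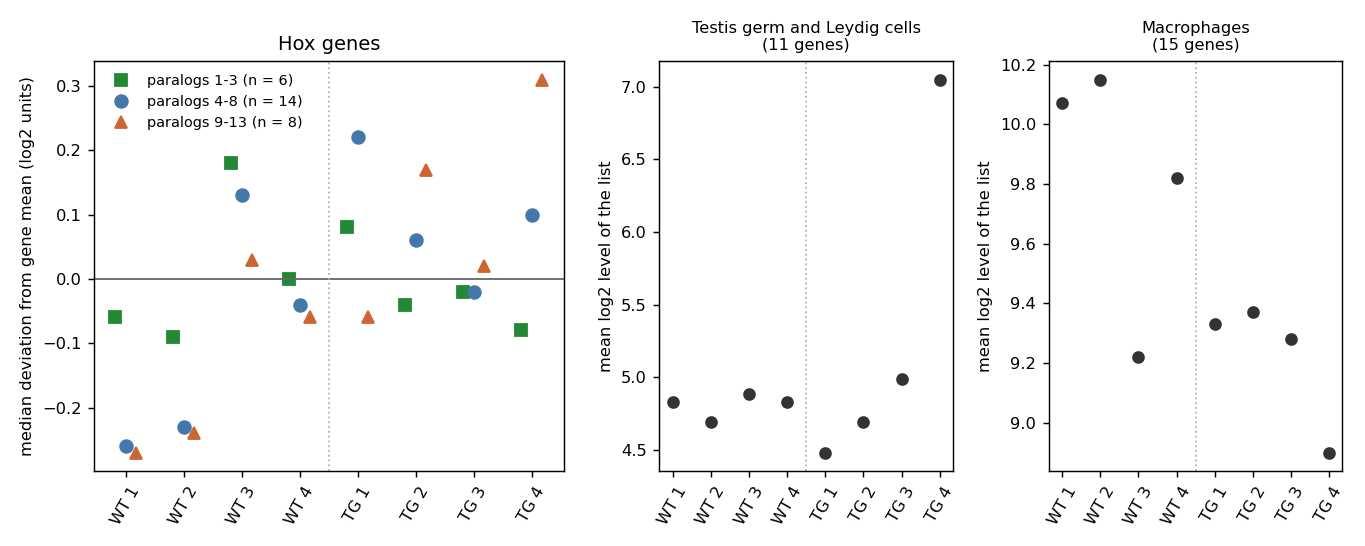
Left, median deviation of Hox genes above background from their own means (log2 units) on each array, for paralogs 1-3, 4-8 and 9-13. Middle and right, mean log2 level of 11 testis genes and 15 macrophage genes on the same arrays (horizontal axis: 4 WT and 4 IL37TG, TG). Transgenic replicate 4 stands apart for the testis genes (7.05), and wild-type replicates 1 and 2 have the lowest Hox deviations of paralogs 4-8 and the highest macrophage means.

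A few settings brought single Hox genes past the threshold, each together with a larger share of all genes than the 3.34% above. Without wild-type replicate 3 these were Hoxa7, Hoxc5, Hoxc8 and Hoxc9 (6.31% of all genes passed). Array weights gave Hoxc5 and Hoxc8 (6.71%), and a filter at the median gene gave Hoxc9 among the 13 Hox genes it kept (13.8% of the genes kept). With wild-type replicate 3 and transgenic replicate 4 both left out Hoxa7, Hoxc5 and Hoxc8 passed (4.65%), and without wild-type replicates 3 and 4 Hoxa7, Hoxc8 and Hoxc9 did (4.38%). In the other 17 fits no Hox gene passed at 0.05.

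The cell type lists were read on the same arrays. In the transgenic arrays Slc2a4 and Adipoq of the adipocyte list rose by 0.74 and 0.30 log2 units (limma adjusted p = 0.0188 and 0.0309), and Acta1 of the skeletal muscle list by 0.72 (limma adjusted p = 0.0206). These were 2 of 14 adipocyte and 1 of 8 skeletal muscle genes, where 2.07% of all genes rose. None of the 3 passed with the number as a block (limma adjusted p of 0.0541 to 0.0942). With 1 array left out, Adipoq passed in 1 of 8 fits, Acta1 in 3 and Slc2a4 in 4. With the letter as a block Slc2a4, Adipoq and Acta1 differed by 0.6, 0.25 and 0.65, within letter G alone, and did not pass. No gene passed among 14 progenitor and fibroblast, 12 mesothelial, 10 endothelial, 10 lymphocyte, 6 smooth muscle, 20 epididymis and 11 testis genes. Some missed narrowly: Lum (-0.76) and Pdgfrb (-0.3) of the progenitor list and Cd2 (0.57) of the lymphocyte list (limma adjusted p = 0.0565, 0.0591 and 0.0608). Of the 14 progenitor genes 3 were lower and 1 higher without overlap of the groups, beside 5.73% and 8.24% of all genes. The part of cell content in the Hox values was not tested. Smooth muscle genes had list means of 7.69 to 8.19 in the wild type and 7.92 to 8.92 in the transgenic arrays.

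The array names hold a letter and a number that were uneven between the groups. Letter F held only wild-type and letter H only transgenic arrays, while both genotypes met in letter G (wild-type replicates 3 and 4, transgenic replicate 1). Within number 5, which paired wild-type replicate 3 with transgenic replicate 2, Hoxc8 differed by -0.07 and Hoxc5 by -0.04. Within numbers 7 and 9 Hoxc8 differed by 0.49 and 0.55 and Hoxc5 by 0.53 and 0.80. Hoxc9 differed by 0.42, 0.67 and 0.88 within the 3 numbers but by 0.05 within letter G, where Hoxc8 and Hoxc5 differed by 0.41 and 0.68. Thus the differences of these genes were not alike across the parts of the array names, each of which held 2 or 3 arrays. With the letter as a block only letter G compares the genotypes, so the differences are those within it. Hoxc9, Hoxc8 and Hoxc5 did not pass in that fit, which with 1 transgenic array in the comparison decides little.

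**Figure D5:**
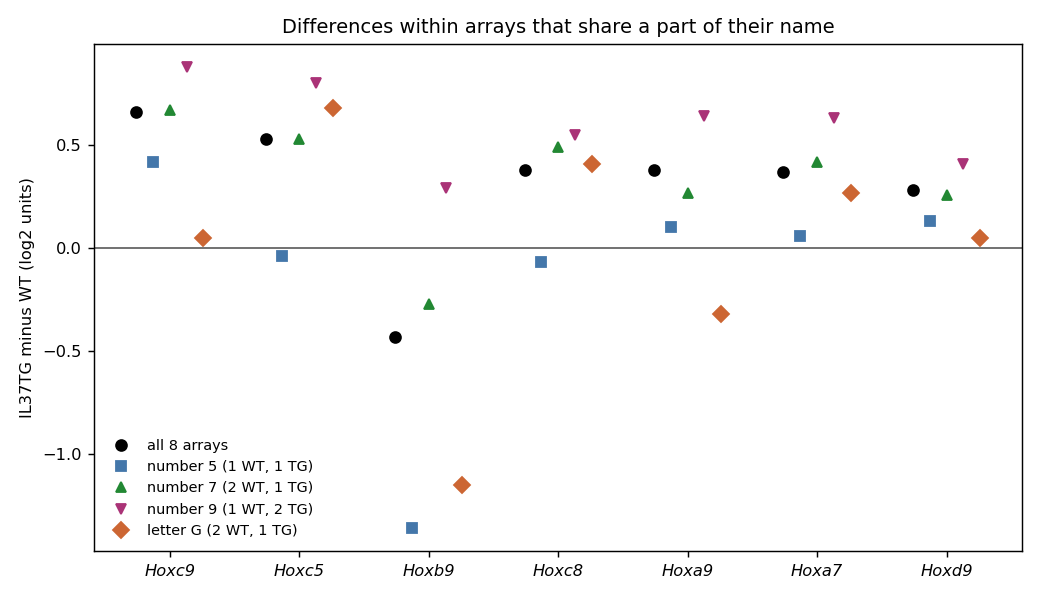
IL37TG minus WT difference (log2 units, vertical axis) of 7 Hox genes (horizontal axis), over all 8 arrays and within arrays that share a number or the letter G in their names. Hoxc9 spans 0.05 (letter G) to 0.88 (number 9), and Hoxb9 changes sign, from -1.36 (number 5) to 0.29 (number 9).

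The Hox clusters also carry microRNA genes that are known to act on Hox messages, miR-196 on Hoxc8 among them. The 6 such genes matched RefSeq entries of GRCm38.p6, and the mature sequences of the families are shown because they lie between Hox genes described above. Capitals mark the seed, bases 2 to 8.
miR-10a-5p: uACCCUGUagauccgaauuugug
miR-10b-5p: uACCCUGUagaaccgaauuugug
miR-196a-5p: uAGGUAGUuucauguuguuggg
miR-196b-5p: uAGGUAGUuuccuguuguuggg
miR-615-5p: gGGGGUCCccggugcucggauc
miR-615-3p: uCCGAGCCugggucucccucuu

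The 2 miR-10 sequences shared the seed ACCCUGU and the 2 miR-196 sequences the seed AGGUAGU. Mir10a lies inside the Hoxb3 gene, Mir10b inside Hoxd3 and Hoxd4, Mir196b between Hoxa9 and Hoxa10, Mir196a-1 between Hoxb13 and Hoxb9 and Mir196a-2 between Hoxc10 and Hoxc9. The probe sets of these 5 genes, which may read precursors rather than mature RNA, had means over the 8 arrays of 3.04 (Mir196a-2), 3.15 (Mir10b), 3.39 (Mir10a), 3.45 (Mir196a-1) and 4.05 (Mir196b). None was above background or passed the test, and their groups overlapped.

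Mir615 lies inside Hoxc5, with its arms at chr15:103014926-103014947 and chr15:103014969-103014990 on the plus strand. It read 5.36, 5.21, 5.15 and 5.16 in the wild type and 5.54, 5.48, 5.66 and 5.47 in the transgenic arrays, so the groups did not overlap. The difference of 0.31 (SE 0.07) did not pass (limma adjusted p = 0.0544). It was 0.32, 0.39 and 0.30 within the 3 numbers and 0.38 within letter G. The Hoxc5 gene that holds it had differed by 0.53 with overlapping groups.

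Of 14 measured noncoding and flanking genes of the clusters, which include these 6 microRNA genes, none passed (3 at an unadjusted p of 0.05, where 20.6% of all genes were counted). Hottip, the noncoding RNA beyond Hoxa13, differed by 0.07 and was not above background. The genes beside the clusters did not pass either: Lnpk beside Hoxd (-0.28, limma adjusted p = 0.124), Skap2 beside Hoxa (-0.32, limma adjusted p = 0.155), Mtx2 beside Hoxd (-0.02) and Skap1 beside Hoxb (0.02). None of the 6 ParaHox and Cdx genes, relatives of the Hox genes that act in gut and spinal cord, passed (Gsx1 0.12, Gsx2 0.09), and 2 of the 6 were above background.

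Hox proteins bind DNA with partners of the Pbx, Meis and Pknox families. All 8 such genes measured were above background and none passed. Meis1 read 8.24, 7.87, 8.28 and 8.18 in the wild type and 8.34, 8.48, 8.4 and 8.55 in the transgenic arrays, which did not overlap (difference 0.30, SE 0.10, limma adjusted p = 0.137). Meis3 differed by 0.19, Meis2 by 0.08, Pbx3 by 0.06 and Pknox2 by -0.19, with overlapping groups. Pknox1 differed by -0.12 and Pbx2 by less than 0.01. Pbx4, a gene known to be active in the testis, read 6.2 in transgenic replicate 4 and 5.13 to 5.63 on the other 7 arrays.

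Among the genes that keep Hox genes silent or active, 1 of 25 Polycomb genes rose and 2 fell, where 2.07% of all genes rose and 1.27% fell, and none of 14 Trithorax genes passed. Mtf2, which brings the Polycomb complex PRC2 to CG-rich starts, fell from 8.2 ± 0.07 to 7.81 ± 0.10 (SD, n = 4; log2 -0.39, SE 0.07, limma adjusted p = 0.0288). Phc2, a subunit of the complex PRC1, fell by 0.29 log2 units and Yaf2, another PRC1 subunit, rose by 0.29 (limma adjusted p = 0.049 for each). These 3 calls were each lost on removal of 7 of the 8 arrays in turn, with adjusted p of up to 0.141. They remained without wild-type replicate 3 for Mtf2 and Yaf2 and without transgenic replicate 3 for Phc2. With the number as a block the limma adjusted p was 0.0832, 0.151 and 0.103 for Mtf2, Phc2 and Yaf2. With the letter as a block their differences were -0.52, -0.29 and 0.22, and none passed. That fit compares the genotypes within letter G alone, with 1 transgenic array, and cannot decide whether the calls hold. Kmt2a, the Trithorax methyltransferase that keeps Hox genes active, differed by 0.21 (SE 0.07, limma adjusted p = 0.139), and Men1, its partner, by 0.16 (limma adjusted p = 0.304).

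Retinoic acid switches on Hox genes in sequence in the embryo. Of 17 measured genes of its pathway, Rarg, a retinoic acid receptor, rose from 7.6 ± 0.07 to 8.01 ± 0.09 (SD, n = 4, log2 0.41, SE 0.06, limma adjusted p = 0.0203). No other passed, where 2.07% of all genes rose and 1.27% fell. The Rarg arrays separated fully, with 7.63, 7.5, 7.65 and 7.63 in the wild type and 8.03, 8.09, 8.03 and 7.89 in the transgenic arrays. Its call was kept without wild-type replicate 3, transgenic replicate 3 or transgenic replicate 4 and lost without each other array (adjusted p of up to 0.0728). With the number as a block the limma adjusted p was 0.0561. With the letter as a block the difference was 0.39 and did not pass. It came from letter G alone, so that fit cannot decide whether the call holds.

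Of 23 other genes known to mark position or depot in fat, Thbd, the thrombomodulin gene, rose and no other passed. Of all genes 2.07% rose and 1.27% fell. It read 8.76, 8.79, 8.84 and 8.88 in the wild type and 9.99, 9.96, 9.58 and 9.86 in the transgenic arrays, a 2.04-fold difference (log2 1.03, SE 0.09, limma adjusted p = 0.00535). The call held on removal of each of the 8 arrays in turn (0.98 to 1.12). With the letter as a block the difference was 1.13 and did not pass. It came from letter G alone, with replicate 1 as the only transgenic array, so that fit cannot decide whether the call holds. The Thbd difference of 1.03 over all arrays was larger than that of any Hox gene.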

How the data were processed

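The deposited values were log2 expression levels per probe set, which the submitters' processing notes credit to RMA (background correction, quantile normalisation and probe summary). Its version and the array annotation are not given in the sources used here. RMA's quantile step hides shifts shared by most genes, and dim probe sets understate differences. Depth does not apply, and the number of arrays limits the precision. Of 35556 probe sets, 21218 had 1 symbol, 1881 several and 12457 none in the annotation used. Symbols were updated through the Entrez identifier with the RefSeq table of GRCm38.p6 for 21185. The probe set with the highest mean was kept per gene. The difference was fitted without a filter (limma 3.58.1, R 4.3.3; lmFit, then eBayes; two-sided) and adjusted over 18820 genes. The code was tested on simulated data. A gene was called above background when its mean over 8 arrays exceeded the olfactory receptor level. Genes given array by array were the 3 brightest of each cluster and the 6 largest differences above background. From each list, members past the threshold or else the 2 with the lowest p were examined, as were all Pbx, Meis and Pknox genes. Of the cell type lists those past the threshold are printed, and also Adam7, Defb20, Emcn, Vwf, Lum, Pdgfrb, Cd2 and Sycp3, which did not pass but had the lowest p of their lists. Hoxd9, Hoxd10, Mir615's relatives, Skap1, Skap2, Mtx2, Hottip, Acrv1, Cyp17a1, Krt8, Krt18, Cdh1, Crabp1, Emx2, Msln, Upk3b and Aqp9 were chosen after their values were seen. The members and lists were chosen with earlier results of these data known. The spans of Hoxa3 and Hoxa4 to Hoxa6, Hoxb3 and Hoxb4, Hoxd3 and Hoxd4, and Hoxd10 and Hoxd11 overlap in RefSeq, and their probe sets may read shared transcripts. Alternatives were a second quantile normalisation, centring, filters, other probe set choices, priors, array weights, blocks, a threshold of 0.1 and arrays left out. The fits without wild-type replicate 3 and transgenic replicate 4, and without wild-type replicates 3 and 4, were chosen after seeing the data. Figures were drawn with matplotlib 3.10.9.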

Additional observations from a re-analysis of the deposited data

Results flagged for a closer look

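The 36 Hox genes and 40 genes named from the lists gave 152 groups of 4 arrays. In 9 of them (5.92%) a single array lay apart from its group; about 1 group in 20 would by chance. Wild-type replicate 3 did so for Hoxc8 (11.64) and Hoxc13 (4.07), replicate 2 for Hoxb4 (7.07), Hoxd1 (3.64), Meis2 (8.1) and Rarg (7.5), and replicate 4 for Hoxa11 (3.65). Transgenic replicate 1 did so for Hoxc4 (6.9) and replicate 3 for Adam7, an epididymis marker (4.13). Hoxa11, Hoxc13, Hoxd1 and Adam7 were not above background.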

How the results depend on the processing

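No Hox gene fell under any of the 22 alternative fits, and 4 rose in at least 1 of them. Beside 0 in the analysis as reported, the number of Hox genes that rose was 2 with array weights, 3 without wild-type replicate 3 and transgenic replicate 4, 3 without wild-type replicates 3 and 4, 1 with the median filter, 1 at a threshold of 0.1 and 0 to 4 leaving out 1 array. The filter at the 25th percentile kept 29 Hox genes. The median filter kept 13, and with either filter the median covers the kept genes alone. The median Hox difference stayed between 0.10 and 0.18. The replicate block, the other prior and the other probe set choices leave each Hox difference unchanged, so they could not move it.

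Over all genes 390 were higher and 239 lower. The numbers were 10 and 60 with the letter block, 44 and 28 with the number block, 724 and 539 with array weights, 741 and 554 with the median filter, 857 and 680 at the threshold of 0.1, 13 and 5 without transgenic replicates 2 and 3, whose array names carry an added 2, 491 lower without wild-type replicate 3 and transgenic replicate 4, and 553 lower without wild-type replicates 3 and 4. Leaving out 1 array they ran from 50 to 520 and from 32 to 668. Same-numbered replicates correlated at 0.09, 0.1, 0.09 and 0.06, so the titles' numbers do not show a pairing, and not every array correlated best with its own number. With the replicate block 40 genes were higher and 53 lower.

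Signs changed only for differences that did not pass. With the letter block these were Hoxa9 (-0.32), Hoxa10 (-0.27), Hoxa11 (-0.058), Hoxb2 (0.089), Hoxc10 (-0.28), Hoxc13 (0.067), Hoxd8 (-0.15), Hoxd12 (-0.0035), Pbx2 (0.083), Pbx4 (-0.14), Pknox1 (0.17), Emcn (-0.082) and Vwf (-0.1). With the number block they were Hoxb4 (-0.0058) and Hoxc13 (0.0029). With array weights they were Hoxa2 (0.013), Hoxb2 (0.055), Hoxd12 (-0.007), Pbx2 (0.014) and Pbx4 (-0.055). Without wild-type replicate 3 and transgenic replicate 4 they were Hoxa2 (0.086), Hoxa13 (-0.027), Hoxb2 (0.12), Hoxd3 (0.044) and Pbx4 (-0.18). Without wild-type replicates 3 and 4 they were Hoxa2 (0.094), Hoxa13 (-0.061), Hoxb2 (0.081), Hoxb4 (-0.039), Hoxb5 (-0.026), Hoxb7 (0.047), Hoxb9 (0.17), Hoxd1 (-0.02) and Hoxd3 (0.057). Pbx2 was 0.0072 after centring, and Hoxd1 and Hoxd12 were -0.013 and -0.0028 after a second quantile normalisation. Without transgenic replicates 2 and 3 Hoxc13 was 0.016, Hoxd1 -0.049 and Pbx2 0.05. Leaving out 1 array, the ranges were -0.1 to 0.058 for Hoxa2, -0.045 to 0.059 for Hoxa13, -0.11 to 0.048 for Hoxb2, -0.04 to 0.091 for Hoxb4, -0.061 to 0.064 for Hoxb5, -0.078 to 0.071 for Hoxc13, -0.0067 to 0.052 for Hoxd1, -0.1 to 0.019 for Hoxd3, -0.003 to 0.069 for Hoxd12, -0.046 to 0.031 for Pbx2 and -0.17 to 0.19 for Pbx4. The cause was not tested.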
